A study of Mus musculus with 34 samples.

Results

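The nuclear genes of the mitochondrial ribosome and of respiratory complexes I to IV were examined for binding of p65, PDX1 and SIN3A in a mouse β-cell line. They were chosen by symbol alone, as the Mrpl and Mrps genes of the 2 ribosomal subunits, the Nduf genes of complex I (NADH dehydrogenase), the Sdh genes of complex II (succinate dehydrogenase), the Uqcr genes of complex III (cytochrome bc1) and the Cox4 to Cox8 genes of complex IV (cytochrome c oxidase). This gave 148 of 21887 nuclear protein-coding genes. By symbol alone, 49 were counted to the large and 29 to the small ribosomal subunit, 40 to complex I, 4 to complex II, 8 to complex III and 18 to complex IV. A symbol need not match the place of its protein, and this was not checked. A peak was given to the protein-coding gene whose body lay nearest to its centre, within 50 kb, and so counts for 1 gene only. Nearness does not show that a gene is controlled from the site.

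The mitochondrial ribosome translates the few respiratory chain subunits that mitochondrial DNA encodes, whereas its own proteins and most subunits of the chain are made from nuclear genes and imported. In β-cells, ATP made by the respiratory chain from glucose closes potassium channels and so triggers insulin release. Promoters of such genes are known to bind the activators NRF1, GABP (an ETS factor) and YY1. The p65 protein (RELA) is the transactivating subunit of NF-κB, PDX1 is a homeodomain activator of β-cell genes, and SIN3A is the scaffold of a histone deacetylase complex.

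The cells were Beta-TC6, a mouse insulinoma line, and every sample had received a 1 h pulse of 10 µM forskolin to synchronise it. For p65 and for PDX1 the groups were Bmal1-/- cells with IL-1β, Bmal1-/- cells under control conditions, WT cells with IL-1β and WT cells under control conditions, with 3 samples each. Bmal1 encodes an activator of the circadian clock, and IL-1β is the inflammatory cytokine that activates NF-κB. For SIN3A the groups were WT cells with Pdx1 siRNA and WT cells with control siRNA, with 2 samples each. Neither the IL-1β dose and time nor the number of clones behind the Bmal1-/- cells is stated in the sources. The title of the series names NF-κB enhancers, circadian enhancers and the function of β-cells.

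The data were 10 peak lists, 1 per group, with no value per sample, so replicate spread is unknown and no difference between groups was tested. Depth was 53.5 to 63.9 M tags for the p65 and PDX1 lists and 31.0 and 35.0 M for SIN3A. The lists held 173 to 31389 p65 peaks, 8095 to 40028 PDX1 peaks, and 14653 and 13109 SIN3A peaks with Pdx1 and with control siRNA. PDX1 samples with IL-1β carry p65 as their antibody label but PDX1 in their titles, which set the groups here. Of all gene-assigned peaks in the WT list with IL-1β under that title, 61.7% overlapped a peak of the WT control PDX1 list and 28.6% a peak of the WT p65 list with IL-1β. For the Bmal1-/- list with IL-1β under that title the 2 shares lay closer together. They were 59.8% with the Bmal1-/- control PDX1 list and 45.4% with the Bmal1-/- p65 list with IL-1β. All 8 β-cell marker genes (among them Ins1, Ins2 and Nkx6-1) had a peak in both WT PDX1 lists and also in the WT p65 list with IL-1β, so they do not tell the labels apart. All 4 α-cell and both δ-cell marker genes had PDX1 peaks there too, and peaks do not show expression. Peak lists cannot show whether Bmal1 was lost or Pdx1 depleted.

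SIN3A was found at most of the 148 genes, and at a larger share of them than of all genes. With Pdx1 siRNA 116 of them had a SIN3A peak, 78.4% (Wilson 95% interval 71.1 to 84.2%), against 48.9% of all protein-coding genes. With control siRNA 112 did, 75.7% (68.2 to 81.9%), against 46.4% of all genes. Intervals here and below cover counting error only. The comparison with all genes was not matched for expression, which peak lists do not show. Peaks were also counted per length of genome, which gives no independent support where peaks sit at gene starts and genes lie close together. The stretch of genome nearest to each of the 148 genes was short, with a median of 16000 bp against 46000 bp over all genes. It held 29.8 SIN3A peaks per Mb with Pdx1 siRNA and 26.9 with control siRNA, against 8.46 and 7.61 per Mb over all genes. A SIN3A peak in at least 1 of the 2 lists was present at 124 of the 148 genes, against 52.4% of all genes.

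**Figure D1:**
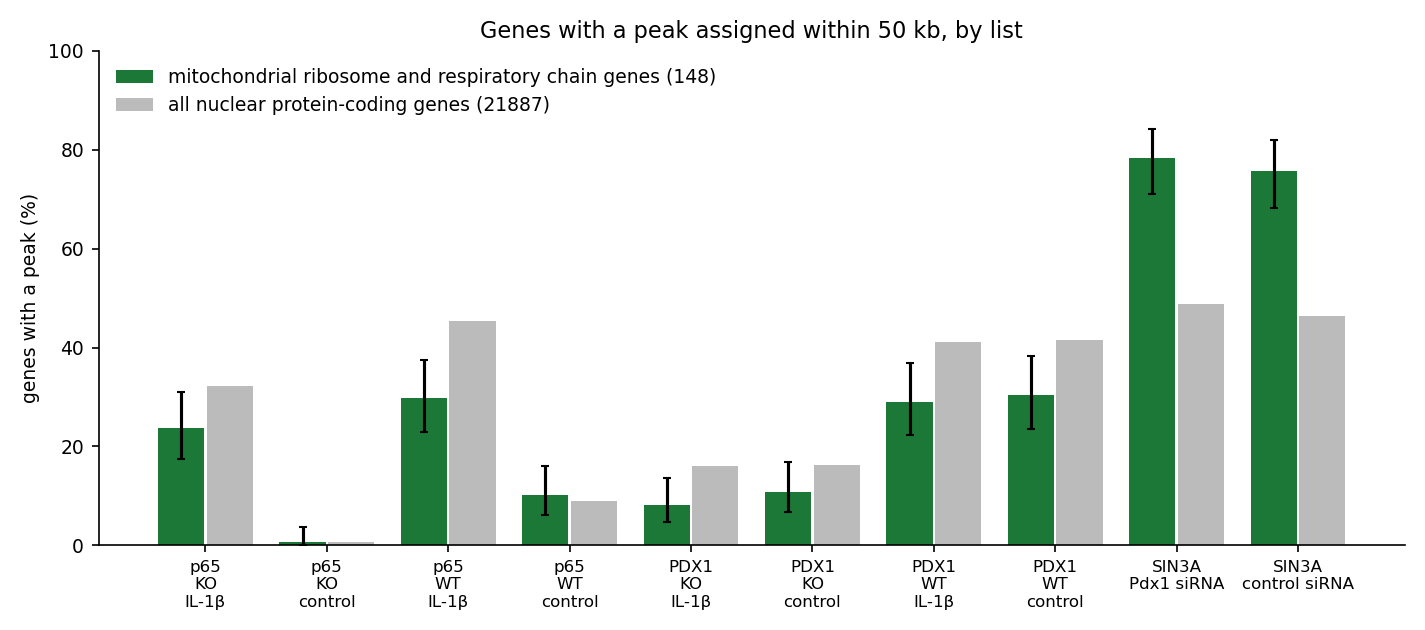
Percent of genes with a peak assigned to them within 50 kb in each of the 10 lists, for the 148 mitochondrial ribosome and respiratory chain genes (green, error bars are Wilson 95% intervals) and for all 21887 nuclear protein-coding genes (grey). KO stands for Bmal1-/- cells. The green bars stand above the grey ones for SIN3A (78.4 and 75.7% against 48.9 and 46.4%) and below them for PDX1 and for p65 with IL-1β.

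The bar plot of shares shows the 3 proteins apart. SIN3A bars of the 148 genes exceed those of all genes, while p65 bars with IL-1β and all PDX1 bars fall short of them. Under control conditions the p65 bars of both genotypes reach about the height of the bars of all genes.

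SIN3A lay at the starts of these genes. The peak was within 1 kb of an end of the gene for 103 of the 148 genes with Pdx1 siRNA and for 97 with control siRNA, against 39.9% and 38% of all genes. The median distance of their peaks to the nearer gene end was 184.5 bp with Pdx1 siRNA and 166 bp with control siRNA, against 383 and 351 bp over all assigned peaks. RefSeq gives a start for 124 of the 148 genes. With Pdx1 siRNA 97 of 112 peaks at those genes lay within 1 kb of the start (86.6%, against 71.6% of all peaks at genes with a start), and 90 of the 97 were downstream of it. With control siRNA 90 of 99 did (90.9%, against 74.3%), and 81 of the 90 were downstream. The median position was 148 bp downstream of the start with Pdx1 siRNA (quartiles 91 and 199 bp) and 128.5 bp with control siRNA (83.25 and 202.25 bp), against 152 and 149 bp over all genes.

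**Figure D2:**
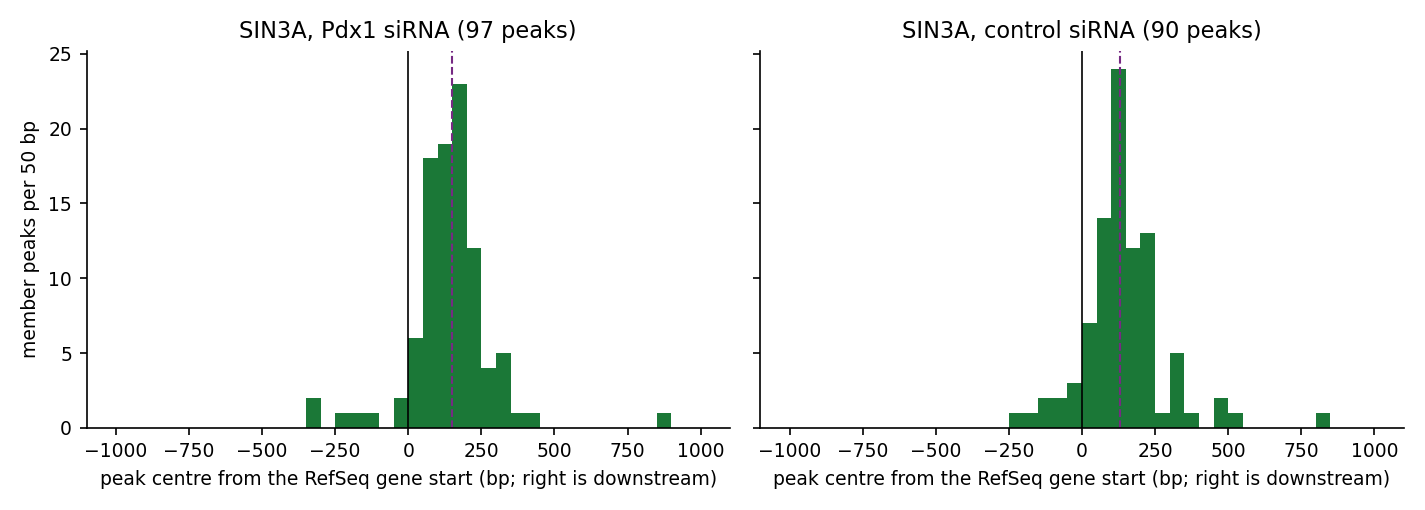
Position of SIN3A peak centres relative to the RefSeq start of the gene they were assigned to, in bins of 50 bp, for genes of the mitochondrial ribosome and respiratory chain with Pdx1 siRNA (left, 97 peaks) and with control siRNA (right, 90 peaks). The solid line is the start and the dashed line the median, which lies 148 bp downstream with Pdx1 siRNA and 128.5 bp downstream with control siRNA.

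In the histograms of position the peaks form a single mound just inside the gene in both lists, with few upstream of the start. Many of these starts lie close to another gene. With Pdx1 siRNA 43 of the 107 peaks within 1 kb of an end, and with control siRNA 38 of 98, had an end of another protein-coding gene within 1 kb as well. This was counted for the set only, so it cannot be called particular to the set. When every gene with an end within 1 kb of a SIN3A peak is counted, whichever gene the peak was given to, 122 of the 148 genes are reached with Pdx1 siRNA and 117 with control siRNA, against 44.7% and 42.7% of all genes.

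The promoters of the 6 genes with the highest SIN3A tag counts in the list with control siRNA, among those with a RefSeq promoter entry, are shown so that the sequence at the starts of these genes can be read. The peaks lie mostly downstream of these windows: those of Mrpl12 and Mrpl23 do not reach them, and the others overlap them in part. Each covers 150 bases before to 30 bases from the start, from RefSeq (GRCm38.p6, the assembly called mm10), 5′ to 3′ on the gene's strand. Capitals mark the letters of NRF1 (its consensus), ETS (CCGGAAG), YY1 (AAGATGGCG) or SP (GGGCGGG) motifs on either strand. Mrpl38 and Mrpl54 had no entry.
Mrps6 promoter (chr16:92058186-92058365, plus strand): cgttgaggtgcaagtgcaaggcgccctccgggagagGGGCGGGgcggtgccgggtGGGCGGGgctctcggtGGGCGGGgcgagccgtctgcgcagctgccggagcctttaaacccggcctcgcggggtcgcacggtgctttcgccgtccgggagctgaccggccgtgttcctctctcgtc
Mrpl12 promoter (chr11:120484487-120484666, plus strand): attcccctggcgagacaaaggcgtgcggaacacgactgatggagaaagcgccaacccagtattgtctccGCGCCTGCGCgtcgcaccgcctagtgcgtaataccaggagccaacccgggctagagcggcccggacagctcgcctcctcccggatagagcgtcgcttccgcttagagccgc
Mrps18b promoter (chr17:35916411-35916590, minus strand): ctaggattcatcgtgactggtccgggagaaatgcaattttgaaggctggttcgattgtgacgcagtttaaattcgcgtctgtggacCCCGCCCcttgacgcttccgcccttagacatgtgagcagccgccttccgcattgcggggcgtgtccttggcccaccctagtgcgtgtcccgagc
Mrpl43 promoter (chr19:45006413-45006592, minus strand): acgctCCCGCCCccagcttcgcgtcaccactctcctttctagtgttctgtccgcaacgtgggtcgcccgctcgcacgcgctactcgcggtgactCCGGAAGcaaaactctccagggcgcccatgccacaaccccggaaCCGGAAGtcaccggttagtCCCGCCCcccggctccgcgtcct
Mrpl23 promoter (chr7:142532882-142533061, plus strand): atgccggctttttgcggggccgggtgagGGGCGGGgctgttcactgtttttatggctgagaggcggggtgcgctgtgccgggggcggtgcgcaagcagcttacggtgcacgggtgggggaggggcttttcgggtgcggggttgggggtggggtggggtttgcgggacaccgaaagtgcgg
Mrps27 promoter (chr13:99344636-99344815, plus strand): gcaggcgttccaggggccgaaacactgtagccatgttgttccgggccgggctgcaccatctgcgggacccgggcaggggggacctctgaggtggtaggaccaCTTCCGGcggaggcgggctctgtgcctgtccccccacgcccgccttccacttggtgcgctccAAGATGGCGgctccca

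Each of the 6 promoters holds at least 1 of these motifs. The Mrps6 promoter has SP letters only, in 3 places, the Mrpl12 promoter has an NRF1 match, the Mrpl43 promoter has ETS and SP matches, and the Mrps27 promoter has an ETS and a YY1 match.

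Over the 124 genes with a promoter entry, letters of the known mitochondrial activators were more frequent than over all 17492 protein-coding promoters of the same 300 bases. NRF1 letters were in 24 promoters, 19.4% (13.4 to 27.2%) against 6.66% of all promoters. ETS letters were in 35, 28.2% (21.05 to 36.7%) against 11.9%. YY1 letters were in 13, 10.5% (6.23 to 17.1%) against 1.92%. SP letters (37.9% against 33.95%), the CCAAT box (CCAAT, 38.7% against 39.2%), the NF-κB consensus letters (1.61% against 1.45%) and the E-box CACGTG of clock factors (5.65% against 7.91%) were at shares whose intervals included the value over all promoters. The homeodomain letters TAATTA were in 2 of the 124 promoters (1.61%, 0.443 to 5.69%, against 4.69%), again with an interval that included the value over all promoters. Motifs were searched on both strands and may overlap one another.

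The comparison with other SIN3A promoters is narrower. Among genes with a SIN3A peak within 1 kb of the start in the list with control siRNA, NRF1 letters were in 18.7% of the 107 mitochondrial gene promoters (12.4 to 27.1%) against 12.5% of the 7924 promoters of all genes. ETS letters were in 29.0% (21.2 to 38.2%) against 21.5%. Both intervals included the value over all genes. YY1 letters were in 12.2% (7.24 to 19.7%) against 3.80%, and all 13 promoters with them had a SIN3A peak there. Over all genes 301 of the 335 promoters with YY1 letters had one, as did 107 of the 124 promoters of the set whatever their letters. SP letters were less frequent, in 37.4% of the 107 promoters (28.8 to 46.8%) against 52.9% of the 7924. The median GC content of these promoters was 58.0% against 62.3%, and its part in the motif shares was not tested.

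**Figure D3:**
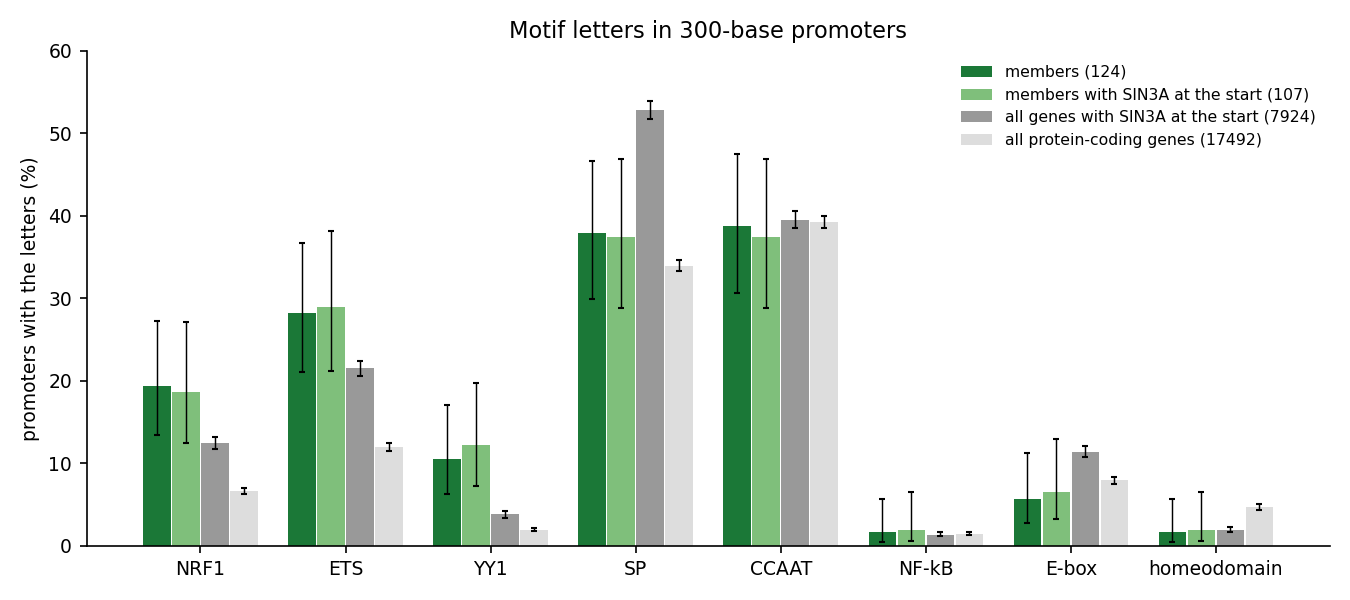
Percent of RefSeq promoters that hold the letters of 8 motifs on either strand, for mitochondrial ribosome and respiratory chain genes (dark green), those of them with a SIN3A peak within 1 kb of the start with control siRNA (light green), all genes with such a SIN3A peak (dark grey) and all protein-coding genes (light grey). Error bars are Wilson 95% intervals. NRF1, ETS and YY1 letters are more frequent in the green bars (19.4, 28.2 and 10.5% in dark green) than over all genes (6.66, 11.9 and 1.92%).

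Both ribosomal subunits and each complex had SIN3A peaks at most of their genes, against 48.9% of all genes with Pdx1 siRNA and 46.4% with control siRNA, and differences between these groups were not tested. Among the large subunit genes 39 of 49 had a peak with Pdx1 siRNA and 38 with control siRNA. Among the small subunit genes 26 of 29 did with Pdx1 siRNA and 23 with control siRNA. Complex I had peaks at 31 of 40 genes in each list, complex III at 7 of 8 in each, and complex IV at 10 of 18 in each (55.6%, 33.7 to 75.4%). The highest tag counts, which are normalised by the authors to 10 M sequenced tags, were at ribosomal genes.

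Mrpl38, a large subunit protein gene, had 73.2 tags with Pdx1 siRNA and 70.2 with control siRNA, 218 and 157 bp inside the gene. Mrpl12, whose protein forms part of the ribosomal stalk, had 70.6 tags with Pdx1 siRNA and 62.5 with control siRNA, 167 and 143 bp after its start. Mrps6, a small subunit protein gene, had 60.6 tags with Pdx1 siRNA and 71.5 with control siRNA, 53 and 66 bp after its start. These 3 genes had the highest counts in both lists. They were followed in the list with Pdx1 siRNA by Mrpl43 (55.5 tags), Mrpl54 (54.9), Mrpl23 (54.3), Mrps18b (52.9) and Mrpl58 (49.2), the gene of a peptidyl-tRNA hydrolase that frees stalled mitochondrial ribosomes. With control siRNA the counts of these 5 genes were 49.6, 56.4, 45.7, 58.3 and 36.4 tags in that order. Mrps28 had 45.8 and 35.1 tags and Mrps27 44.0 and 39.6 tags with Pdx1 and with control siRNA, and Mrps15 had 34.8 tags with control siRNA. With Pdx1 siRNA the highest genes of the chain itself were Ndufb9, an accessory subunit of complex I, with 46.3 tags with Pdx1 siRNA and 28.7 with control siRNA, and Cox8a, the widely expressed isoform of a complex IV subunit, with 46.0 and 34.1 tags. By score, 10 of the 132 peaks with Pdx1 siRNA were in the top 10% of the list (7.58%, 4.17 to 13.4%) and 66.7% in its upper part above the median. Of the 119 peaks with control siRNA 6 were in the top 10% (5.04%, 2.33 to 10.6%) and 58.0% above the median.

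All 4 genes of complex II had a SIN3A peak in at least 1 list. Sdhc, a membrane anchor, had 24.3 tags with Pdx1 siRNA and 20 with control siRNA, and Sdhd, the other anchor, had 19.4 and 20 tags. Sdhb, the iron-sulfur subunit, had a peak only with Pdx1 siRNA (19.7 tags, 202 bp after the start). Sdha, the flavoprotein subunit, had one only with control siRNA (19.6 tags, 198 bp after the start), but in the list with Pdx1 siRNA a peak within 1 kb of an end of Sdha was given to its neighbour Ccdc127. Apart from SIN3A, the complex II genes had few and weak peaks. Sdhd had p65 peaks of 6.71 tags in Bmal1-/- cells and 10.6 and 10.5 tags in WT cells with IL-1β, and Sdha one of 4.30 tags in WT cells with IL-1β. PDX1 peaks of 6.80 tags at Sdhd with IL-1β and 8.14 tags at Sdhb under control conditions were in the WT lists.

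No SIN3A peak was assigned to 24 genes in either list. For 12 of them a SIN3A peak within 1 kb of an end had been given to a neighbour, as at Mrpl10, where a peak of 37.2 tags with Pdx1 siRNA and 39.6 tags with control siRNA lay 258 and 272 bp from its end and was given to Lrrc46. The other 12 had neither. Most of these are isoforms known to be restricted to some tissues. Cox6a2, Cox7a1 and Cox8b are the heart and muscle isoforms of complex IV subunits, Cox6b2, Cox7b2 and Cox8c are testis isoforms, and Cox4i2 is expressed mainly in lung. Cox7a2, Mrpl34 and Ndufb10 complete them together with Ndufb4b and Ndufb4c, copies of Ndufb4. Reads shared between such copies may be hard to place, so their lack of a peak is uncertain. At Ndufb10 the nearest SIN3A peak lay 1830 bp away with Pdx1 siRNA and 1889 bp away with control siRNA, and was given to the ribosomal protein gene Rps2.

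Most genes with a SIN3A peak had one with both siRNAs. A SIN3A peak was present in both lists at 104 of the 148 genes (42.9% of all genes), only with Pdx1 siRNA at 12 (6% of all genes) and only with control siRNA at 8 (3.48% of all genes). Of the 119 peaks with control siRNA 104 overlapped a peak with Pdx1 siRNA (87.4%, 80.2 to 92.2%, against 74.2% of all assigned peaks), and of the 132 with Pdx1 siRNA 103 overlapped one with control siRNA (78.0%, 70.2 to 84.2%, against 66.7%). Of the 12 genes found only with Pdx1 siRNA, Mrpl57 (43.5 tags) and Mrps7 (38.3 tags) had the highest counts, followed by Mrps5, Mrpl30, Mrps12, Mrps26, Ndufa6 and Sdhb at 19.7 to 28.6 tags. At 4 of the 12 (Mrpl30, Mrpl53, Mrpl57 and Mrps7) the control list held a peak within 1 kb that was given to a neighbour. Of the 8 found only with control siRNA, Ndufb5 and Uqcrq had 30.3 tags each, and the others (Mrpl18, Ndufa2, Mrpl44, Sdha, Mrps21 and Ndufa9) 11.3 to 24.5 tags. At 4 of these 8 (Mrpl44, Ndufa2, Ndufb5 and Sdha) the list with Pdx1 siRNA held such a neighbour's peak. At Ndufb5 that neighbour is Mrpl47, also a gene of the set, and the peak there had 36.0 tags. Among peaks at least 8-fold over input 30 genes were in the list with Pdx1 siRNA alone and 13 in that with control siRNA alone. These counts were not made over all genes, of which 38.5% and 35.4% had a peak at that setting. The Pdx1 siRNA list was longer and deeper, and the part of that in the difference was not tested.

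With IL-1β, p65 reached a smaller share of the 148 genes than of all genes, but not a smaller number per length of genome. In Bmal1-/- cells with IL-1β 35 genes had a p65 peak, 23.6% (17.5 to 31.1%) against 32.3% of all genes. In WT cells with IL-1β 44 did, 29.7% (23.0 to 37.5%) against 45.4%. Per Mb of genome nearest to a gene there were 11.3 p65 peaks in Bmal1-/- cells and 18.1 in WT cells with IL-1β at the 148 genes, against 7.79 and 14.6 over all genes. Under control conditions 1 gene had a p65 peak in Bmal1-/- cells, against 0.658% of all genes, and 15 did in WT cells, 10.1% (6.24 to 16.0%) against 8.93% of all genes.

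The strongest p65 peaks at gene starts were at ribosomal protein genes. Mrpl14, a large subunit protein gene, had a peak of 50.7 tags in Bmal1-/- cells and 97.1 tags in WT cells with IL-1β, 70 and 60 bp after its start. Mrpl17, another large subunit gene, had one of 32.5 tags in Bmal1-/- cells and 47.8 tags in WT cells, 128 and 84 bp after its start. Mrps21, a small subunit gene, had one of 22.4 tags in Bmal1-/- cells and 47.6 tags in WT cells, 90 and 105 bp before its start. None of these 3 had a p65 peak in either control list. Tag counts of different lists are set side by side as the authors normalised them and no difference is read from them. The 3 promoters, chosen after these values were seen, are shown over the same window and with the same capitals as above.
Mrpl14 promoter (chr17:45686199-45686378, plus strand): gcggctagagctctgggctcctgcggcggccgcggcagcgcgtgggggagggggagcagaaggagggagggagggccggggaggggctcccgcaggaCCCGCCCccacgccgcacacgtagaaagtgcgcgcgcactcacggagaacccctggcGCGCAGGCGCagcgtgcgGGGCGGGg
Mrpl17 promoter (chr7:105811058-105811237, minus strand): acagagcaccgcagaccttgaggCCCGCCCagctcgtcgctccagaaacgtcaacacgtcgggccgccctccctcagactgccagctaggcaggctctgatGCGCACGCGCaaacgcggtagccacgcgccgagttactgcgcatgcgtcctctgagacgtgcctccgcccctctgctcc
Mrps21 promoter (chr3:95871485-95871664, minus strand): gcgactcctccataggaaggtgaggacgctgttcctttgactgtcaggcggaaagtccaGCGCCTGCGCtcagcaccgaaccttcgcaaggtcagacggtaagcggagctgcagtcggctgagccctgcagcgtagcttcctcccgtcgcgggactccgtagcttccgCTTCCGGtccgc

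In the bases shown each of the 3 holds NRF1 letters, with SP letters in Mrpl14 and Mrpl17 and ETS letters in Mrps21. None held the NF-κB letters in its 300-base window, which says only that these letters are not there. Over the set the NF-κB letters were in the promoters of Mrpl10 and Ndufb6. All 3 genes also had a SIN3A peak at the start in WT cells with control siRNA, and at each it overlapped the p65 peak of WT cells with IL-1β. In all, 10 of the 119 SIN3A peaks with control siRNA overlapped such a p65 peak (8.40%, 4.63 to 14.8%, against 12.2% of all assigned SIN3A peaks), at Mrpl14, Mrpl17, Mrpl48, Mrpl58, Mrpl9, Mrps18b, Mrps21, Ndufb2 and Ndufs1. Counted from p65, 10 of the 80 p65 peaks overlapped a SIN3A peak (12.5%, 6.93 to 21.5%), against 6.32% of all assigned p65 peaks.

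Other strong p65 peaks, except that of Ndufa4l2, lay away from gene ends. Cox7a2l, whose protein joins complexes III and IV into supercomplexes, had 6 p65 peaks in each list with IL-1β, all outside the gene. The highest, at chr17:83526357-83526587 in Bmal1-/- cells and chr17:83526353-83526559 in WT cells, had 43.8 tags in Bmal1-/- cells and 118.8 tags in WT cells and lay 12139 and 12123 bp upstream of the gene. Mrpl45 had a peak of 36.7 tags in Bmal1-/- cells and 84.8 tags in WT cells, inside the gene and 7074 and 7077 bp from its nearer end. Ndufa4l2, a paralogue of Ndufa4 known to be induced by hypoxia, had one of 15.4 tags in Bmal1-/- cells and 39.8 tags in WT cells, 72 and 157 bp from an end. Further genes among the 10 highest of a list were Mrpl15 with 21.0 tags in Bmal1-/- cells and 32.1 tags in WT cells, Mrpl1 (15.5 tags) and Mrpl13 (14.7 tags) in Bmal1-/- cells, and Ndufa10 (27.6 tags), Mrpl36 (25.8 tags) and Ndufb6 (25.8 tags) in WT cells. In the order of scores 5 of the 50 peaks in Bmal1-/- cells and 8 of the 80 in WT cells were in the top 10% of their list.

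Most genes with a p65 peak under IL-1β had none in the control list, and a small group had one in the control list alone. In Bmal1-/- cells 34 of the 148 genes carried p65 in the IL-1β list alone (31.7% of all genes), 1 in both conditions (0.544%) and 0 only under control conditions (0.114%). In WT cells 36 had one only with IL-1β (37.5%), 8 in both conditions (7.98%) and 7 only under control conditions (0.95%). These 7 were Cox8a, Ndufa12, Ndufb5, Ndufv2, Uqcrc1, Mrpl30 and Mrps9, with peaks of 3.72 to 10.4 tags. Of the 16 WT control peaks 4 were found again with IL-1β (25%, 10.2 to 49.5%, against 50% of all assigned peaks), at Cox4i1, Mrpl36, Mrpl48 and Mrps33. With the WT IL-1β list shortened to the length of the control list, 6 genes had p65 with IL-1β alone and 15 under control conditions alone, so the direction turned. The same counts over all genes were not made, so this turn cannot be read as particular to the set.

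A peak inside Mrpl48, a large subunit protein gene, was the only one of the set in the short control list of Bmal1-/- cells. It lay 8603 bp from the gene's start (chr7:100599459-100599937) and had 20.3 tags, rank 45 of 173 by score. At the same place there were 5.65 tags in Bmal1-/- cells with IL-1β, 11.8 tags in WT cells with IL-1β, and 22.9 tags in WT control cells, where it was the highest p65 peak of the set. Between the control lists 1 gene had a peak in both genotypes (0.612% of all genes), 0 only in Bmal1-/- cells (0.0457%) and 14 only in WT cells (8.32%). The control counts of Mrpl36 (13.2 tags), Cox8a (10.4), Ndufa12 (10.0), Cox4i1 (6.88), Mrps27 (6.88), Mrps33 (6.51), Uqcrfs1 (5.95) and Ndufb5 (5.39) in WT cells were lower.

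Between the genotypes with IL-1β, most genes of the set with a p65 peak in Bmal1-/- cells also had one in WT cells. A p65 peak was present in both genotypes at 27 of the 148 genes (29.5% of all genes), only in Bmal1-/- cells at 8 (2.8%) and only in WT cells at 17 (15.9%). The 8 were Mrpl28, Ndufa7, Mrpl21, Mrps16, Ndufa5, Ndufa12, Mrps9 and Ndufs7, at 4.77 to 8.30 tags (median 6.0 over their peaks, against 6.63 for the genes with p65 in WT cells alone), and 7 of them (Mrps9 being the exception) had the peak within 1 kb of an end. Of the 17, which include Mrpl36 (25.8 tags), Ndufb8, Mrps18b (18.1), Cox7a1 (16.3), Cox5b (14.6), Mrps33, Ndufs4 and Mrpl58 (10.8), 5 had a peak within 1 kb. How many of all genes with p65 in 1 genotype alone had it near an end was not counted. Within 1 kb of an end, p65 had peaks at 16 genes in Bmal1-/- cells and 11 in WT cells with IL-1β, against 10% and 13.9% of all genes, and under control conditions at 0 in Bmal1-/- cells (0.16% of all genes) and 5 in WT cells (1.47%). When every gene with an end within 1 kb is counted, 21 genes were reached in Bmal1-/- cells and 14 in WT cells with IL-1β, against 11.7% and 15.9% of all genes. Over all genes the share was higher in WT cells, and within the set it was higher in Bmal1-/- cells, with 14.2% (9.47 to 20.7%) and 9.46% (5.72 to 15.3%). These intervals overlap, and no test of this difference was possible. Among peaks at least 8-fold over input 6 p65 peaks of the set lay within 1 kb of an end in Bmal1-/- cells and 6 in WT cells. Of the peaks within 1 kb at genes with a RefSeq start, all 13 in Bmal1-/- cells and 8 of 10 in WT cells were nearer the start than the other end. In Bmal1-/- cells 9 of the 16 peaks within 1 kb of an end, and in WT cells 3 of 12, also had an end of another gene within 1 kb. This too was counted for the set only. Of the 50 peaks in Bmal1-/- cells 34 overlapped a WT peak (68.0%, 54.2 to 79.2%, against 78.8% of all assigned peaks), and of the 80 in WT cells 34 overlapped one of Bmal1-/- cells (42.5%, 32.3 to 53.4%, against 41.9%). With the WT list shortened to the length of the Bmal1-/- list, 15 genes had p65 in Bmal1-/- cells alone and 8 in WT cells alone, so the direction turned. These counts were not made over all genes, of which 32.3% had p65 in Bmal1-/- and 30.9% in WT cells at equal length.

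**Figure D4:**
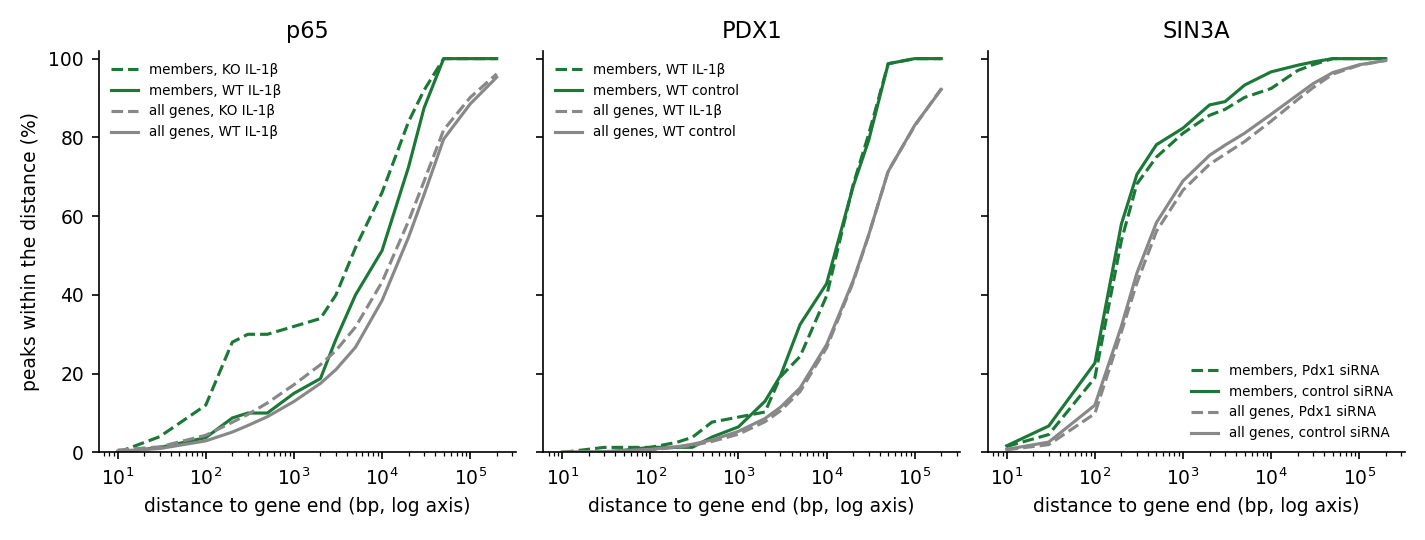
Percent of peaks within a given distance (log axis) of the nearer end of a gene, for peaks of mitochondrial ribosome and respiratory chain genes (members, green, limited to 50 kb outside the gene) and for all peaks by their nearest gene (grey), in 2 lists each of p65, PDX1 and SIN3A. KO stands for Bmal1-/- cells. Within 1 kb the p65 curve of the set in Bmal1-/- cells (32.0% of its peaks) stands above the other p65 curves, and the SIN3A curves of the set reach 81.1% with Pdx1 siRNA and 82.4% with control siRNA.

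The cumulative curves show where each protein lay. In Bmal1-/- cells with IL-1β 32.0% of the p65 peaks of the set were within 1 kb of a gene end (20.8 to 45.8%, against 17.2% of all assigned peaks), and in WT cells 15.0% (8.79 to 24.4%, against 12.9%). The median distance was 4778.5 bp in Bmal1-/- cells and 9194 bp in WT cells, against 13705 and 16697.5 bp over all assigned peaks. The genes of the set are short, with a median length of 7549 bp against 17169 bp, which by itself brings a gene end nearer, and its part in these distances was not tested.

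Assigned by the nearest gene body, PDX1 was found at a smaller share of the 148 genes than of all genes in each of its 4 lists. Few of its peaks lay close to a gene end. In Bmal1-/- cells 12 genes had a PDX1 peak with IL-1β, 8.11% (4.70 to 13.6%) against 16% of all genes, and 16 under control conditions, 10.8% (6.76 to 16.8%) against 16.3%, a value inside the interval. In WT cells 43 had one with IL-1β, 29.1% (22.3 to 36.8%) against 41.1%, and 45 under control conditions, 30.4% (23.6 to 38.2%) against 41.6%. Per Mb of nearest genome the values at the 148 genes were 3.16 and 4.29 in Bmal1-/- cells and 17.6 and 17.4 in WT cells, with IL-1β and under control conditions, against 3.38, 3.44, 16.1 and 16.4 over all genes. Within 1 kb of an end there were peaks at 0 and 1 genes in Bmal1-/- cells (0.973% and 0.932% of all genes) and at 7 and 5 in WT cells (5.59% and 6.53%). The median distance to a gene end was between 6598 and 12114.5 bp in the 4 lists, against 25155 to 26399 bp over all assigned peaks. Peaks within 1 kb of a RefSeq start were few. With IL-1β and under control conditions they were 1 of 14 (7.14%) and 1 of 18 (5.56%) in Bmal1-/- cells. In WT cells they were 5 of 72 (6.94%) and 3 of 68 (4.41%). Over all peaks at genes with a start the shares were 2.48%, 2.16%, 3.23% and 3.90% in the same order. The differences were not tested. A RefSeq start can lie inside the gene body, so it need not be a gene end. When peaks were assigned by the nearest gene start, the share of genes with PDX1 in Bmal1-/- control cells was 14.5% against 13.3% of all genes, so there the direction turned. In the other lists the gaps by nearest start were smaller than by gene body. The shares were 12.1% against 13.3% in Bmal1-/- cells with IL-1β, 36.3% against 41.5% in WT cells with IL-1β, and 38.7% against 42.3% in WT control cells.

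The ribosomal genes Mrpl36, Mrps23 and Mrps33 were among the 4 genes with the highest PDX1 tag counts in each of the 4 lists. The peak given to Mrpl36, a large subunit gene, lay outside it, 4667 to 4710 bp away in the 4 lists. It had 36.1 tags with IL-1β and 37.2 under control conditions in Bmal1-/- cells, and 81.6 and 81.8 in WT cells. The peak given to Mrps23, a small subunit gene, lay 4761 to 4804 bp outside it and had 26.1 and 34.2 tags in Bmal1-/- cells and 86.8 and 73.8 in WT cells, with IL-1β and under control conditions. Mrps33, another small subunit gene, had 28.6 and 42.0 tags in Bmal1-/- cells and 61.9 and 52.5 in WT cells, from a peak inside the gene, 4251 to 4302 bp from its nearer end. All 3 were in each of the 4 lists at the same place.

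Complex I and IV genes also had strong PDX1 peaks. Ndufa12, an accessory subunit of complex I, had 15.0 tags with IL-1β and 23.5 under control conditions in Bmal1-/- cells, and 64.4 and 45.9 in WT cells. Ndufb8, another accessory subunit, had no peak with IL-1β and 29.2 tags under control conditions in Bmal1-/- cells, and 57.8 and 56.5 in WT cells. Cox7a2l had 23.2 and 26.6 tags in Bmal1-/- cells and 52.9 and 30.1 in WT cells. A PDX1 peak in all 4 lists was present at 10 of the 148 genes (11.5% of all genes), namely Cox7a2l, Mrpl1, Mrpl11, Mrpl18, Mrpl36, Mrps23, Mrps30, Mrps33, Mrps9 and Ndufa12. At Mrpl18 the tag counts were 19.2 and 18.4 in Bmal1-/- cells and 16.0 and 20.9 in WT cells, with IL-1β and under control conditions.

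Most genes of the set with a PDX1 peak in one WT condition had one in the other as well. In WT cells 33 genes had a PDX1 peak in both conditions (34.4% of all genes), 10 only with IL-1β (6.68%) and 12 only under control conditions (7.2%), and 50 of the 78 peaks with IL-1β overlapped a control peak (64.1%, 53.03 to 73.9%, against 61.7% of all assigned peaks). Those found only with IL-1β were led by Mrpl51, Uqcrc1, Cox5a, Ndufs5, Mrps18a, Sdhd, Mrpl39 and Mrps35, and those only under control conditions by Mrpl58, Mrpl48, Cox6a2, Sdhb, Ndufb7, Mrpl32, Mrpl9 and Mrpl19. In Bmal1-/- cells 10 genes had one in both conditions (11.7% of all genes), 2 only with IL-1β (Mrpl33 and Mrps27, 4.24%) and 6 only under control conditions (Ndufb8, Cox6a1, Mrpl42, Ndufs4, Mrpl15 and Mrps11, 4.54%).

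Most WT PDX1 sites of the set had no counterpart in the shorter Bmal1-/- lists. With IL-1β 12 genes had a PDX1 peak in both genotypes (15.4% of all genes), 0 only in Bmal1-/- cells (0.521%) and 31 only in WT cells (25.6%). Under control conditions 15 had one in both (15.8%), 1 only in Bmal1-/- cells (Mrpl15, 0.457%) and 30 only in WT cells (25.8%). All 14 peaks of Bmal1-/- cells with IL-1β and 18 of 19 under control conditions overlapped a WT peak. Of the WT peaks 14 of 78 with IL-1β (17.9%, 11.0 to 27.9%, against 18.9% of all assigned peaks) and 18 of 77 under control conditions (23.4%, 15.3 to 34.0%, against 19.3%) overlapped one of Bmal1-/- cells. The genes with a PDX1 peak only in WT cells were led with IL-1β by Ndufb8, Ndufb6, Mrps17, Mrps36, Uqcrfs1, Mrps11, Ndufs1 and Mrpl42, and under control conditions by Mrpl33, Mrpl58, Ndufb6, Mrps36, Mrps17, Uqcrfs1, Ndufs1 and Mrps27. The Bmal1-/- lists were called at thresholds of 32 and 34 tags, against 22 and 20 tags for the WT lists, with IL-1β and under control conditions, and their peaks were 418 and 472 bp wide against 226 and 207 bp. With the WT lists shortened to the length of the Bmal1-/- lists, genes in 1 genotype alone were 4 in Bmal1-/- and 4 in WT cells with IL-1β, and 7 in Bmal1-/- and 6 in WT cells under control conditions. The part of this in the difference was not tested. The matching counts over all genes were not made at equal length.

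All 3 proteins had a peak in some list at 30 of the 148 genes (20.3%), against 27.1% of all genes. These were the ribosomal genes Mrpl1, Mrpl9, Mrpl13, Mrpl15, Mrpl19, Mrpl36, Mrpl39, Mrpl42, Mrpl48, Mrpl58, Mrps6, Mrps9, Mrps18a, Mrps23, Mrps27, Mrps30 and Mrps33, the complex I genes Ndufa10, Ndufa12, Ndufb5, Ndufb6, Ndufb8, Ndufs1, Ndufs4, Ndufs5 and Ndufv3, and Sdhd, Uqcrc1, Uqcrfs1 and Cox7a2l. SIN3A alone was found at 52 genes (35.1%, against 11% of all genes), and none of the 3 proteins in any list at 14 (9.46%, against 28.3% of all genes). Overlap of SIN3A peaks of the set with PDX1 peaks was rare, and its intervals included the values over all peaks. Here 4 of the 119 SIN3A peaks with control siRNA overlapped a WT control PDX1 peak (3.36%, 1.31 to 8.32%, against 6.30% of all assigned peaks), at Mrpl44, Mrpl48, Ndufa12 and Ndufs1, and 3 of the 77 WT control PDX1 peaks overlapped such a SIN3A peak (3.90%, 1.33 to 10.8%, against 2.93%). With IL-1β 5 of 50 p65 peaks of the set in Bmal1-/- cells overlapped a PDX1 peak (10.0%, 4.35 to 21.4%, against 19.7%), at Cox7a2l, Mrpl1 and Mrps27, and 26 of 80 did in WT cells (32.5%, 23.2 to 43.4%, against 31.5%).

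**Figure D5:**
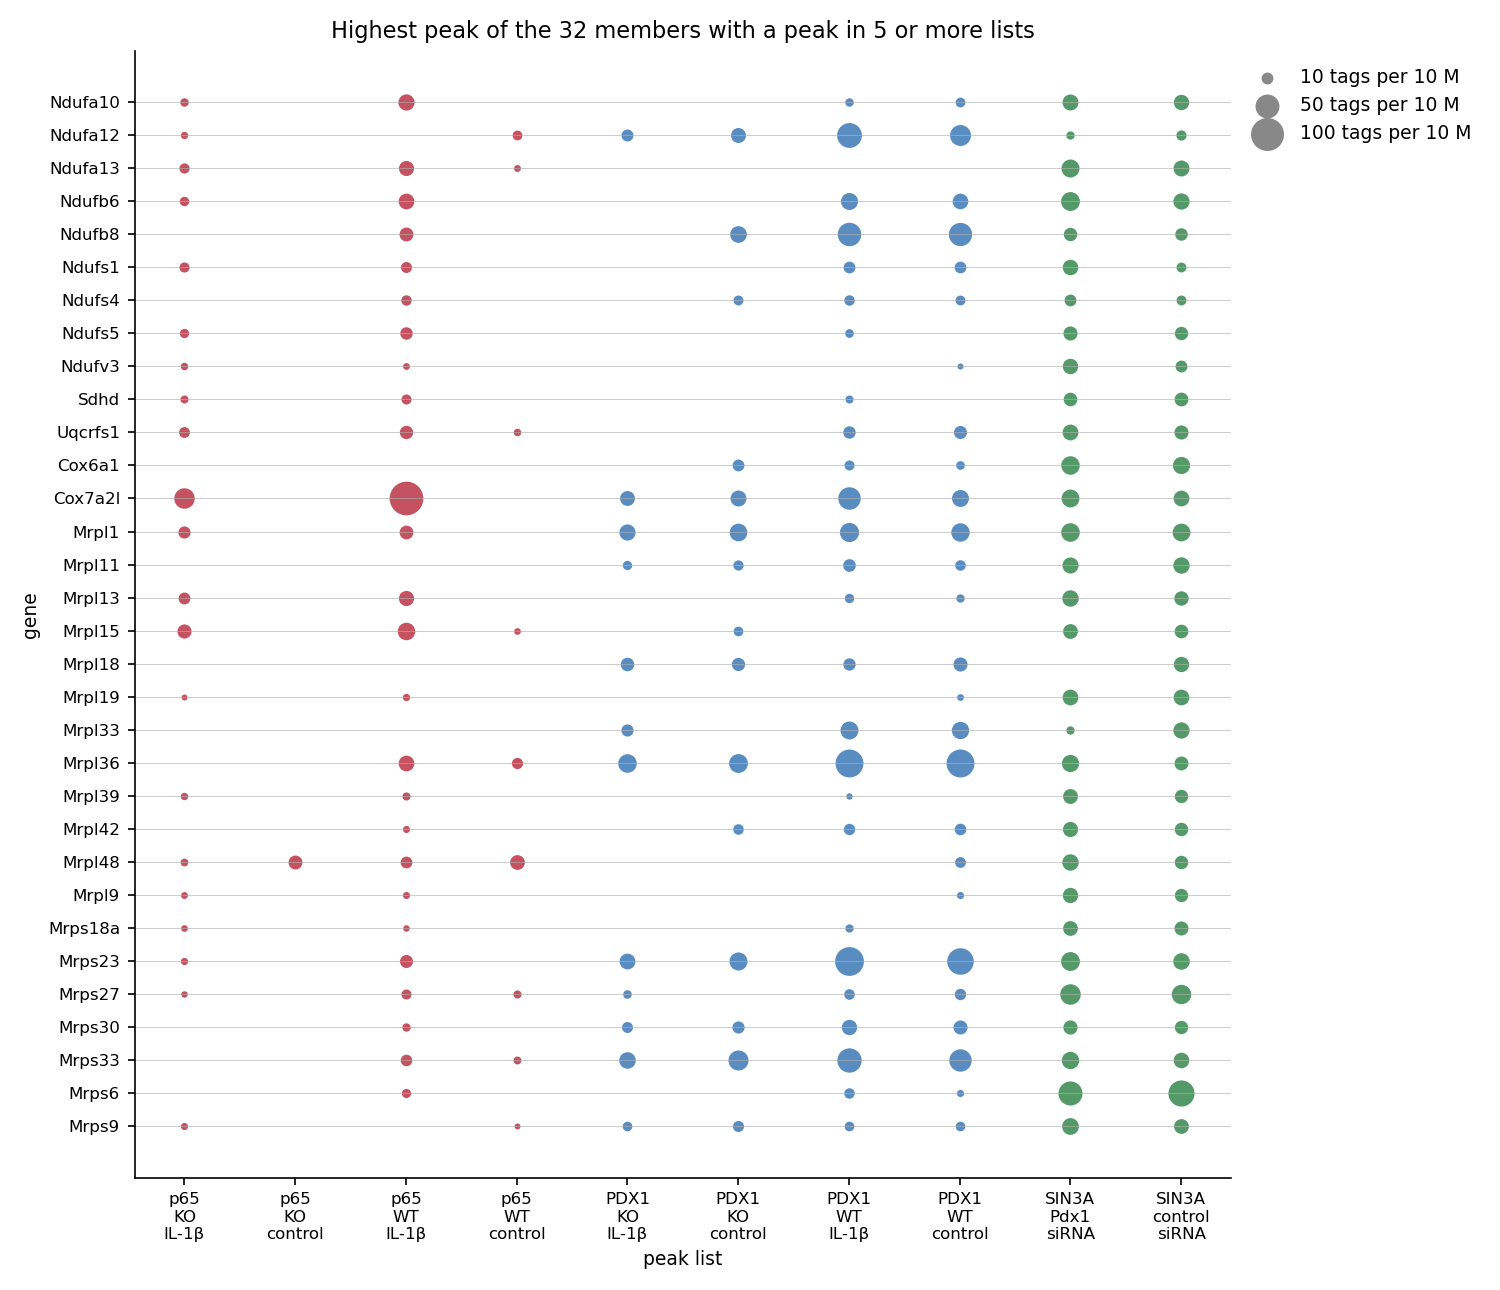
Tag count, normalised by the authors to 10 M tags, of the highest peak of each of the 32 genes of the set with a peak in 5 or more of the 10 lists. The area of a circle is proportional to the tag count, an empty place means no peak, and KO stands for Bmal1-/- cells. PDX1 circles are largest at Mrpl36 and Mrps23 in WT cells (73.8 to 86.8 tags), and the largest circle of all is p65 at Cox7a2l in WT cells with IL-1β (118.8 tags).

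The circle plot shows that no gene had a peak in all 10 lists. The 8 genes with a peak in 8 lists were Cox7a2l, Mrpl1, Mrpl36, Mrps9, Mrps23, Mrps27, Mrps33 and Ndufa12, and 3 genes (Mrpl48, Mrps30 and Uqcrfs1) had one in 7. All 32 genes in the plot have a SIN3A circle with control siRNA and 31 with Pdx1 siRNA (Mrpl18 being the exception), whereas the PDX1 columns of Bmal1-/- cells are the emptiest after p65 under control conditions. The commonest count over the set was 2 lists, at 48 genes.

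Among genes of neighbouring mitochondrial pathways, listed apart from the 148, SIN3A peaks were also present at more than the 48.9% (Pdx1 siRNA) and 46.4% (control siRNA) of all genes in each list, which was not tested. With Pdx1 siRNA and with control siRNA the counts were 16 and 16 of 19 ATP synthase genes, 34 and 29 of 43 assembly factors of the respiratory complexes, 20 and 17 of 25 genes of mitochondrial transcription, RNA handling and translation, 14 and 13 of 17 mitochondrial tRNA synthetases, 22 and 21 of 26 import genes, and 8 and 7 of 8 further subunits and cytochrome c genes. Of 10 genes of nuclear regulators of mitochondrial genes 9 had a SIN3A peak in each list. With IL-1β, against 32.3% of all genes in Bmal1-/- cells and 45.4% in WT cells, p65 had peaks at 4 and 6 ATP synthase genes, 12 and 13 assembly factors, 8 and 11 mitochondrial gene expression genes, 7 and 6 tRNA synthetases, 6 and 8 import genes, 4 and 4 further subunits, and 6 and 6 nuclear regulators, in Bmal1-/- and in WT cells. PDX1 had peaks in WT cells with IL-1β and under control conditions, against 41.1% and 41.6% of all genes, at 7 and 7 ATP synthase genes, 14 and 16 assembly factors, 5 and 4 mitochondrial gene expression genes, 8 and 8 tRNA synthetases, 5 and 6 import genes, 3 and 3 further subunits, and 4 and 4 nuclear regulators.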

How the data were processed

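Chromatin immunoprecipitation sequencing (ChIP-seq) of 34 samples, 6 of them inputs, was analysed from 10 peak lists. The submitters' processing notes name Bowtie2, HOMER, R 4.1.0 and mm10. Per the file headers the lists came from HOMER findPeaks, and the authors kept peaks at least 4-fold over input and 4-fold over the surrounding 10 kb. The deposited signal is a tag count per peak, normalised by the authors to 10 M tags. The deposited score and ratio (fold over input) of each peak are the authors' own and were used only to describe, rank or filter peaks within a list. Pooling of replicates is not stated in the headers, and the labels do not say whether samples of a group were separate cultures.

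Peaks were assigned by their centre to the nearest protein-coding gene body within 50 kb (gene table of GRCm38.p6); a centre inside several bodies went to the gene with the nearer end. Overlap meant at least 1 shared bp. RefSeq promoters (250 bases before to 50 from the start) were matched by gene identifier for 124 of the 148 genes and 17492 of 21887 genes in all. Shares have Wilson 95% intervals. Assignment and overlap were tested on simulated data. Python 3.11.15, numpy 2.4.6, pandas 2.3.3, scipy 1.17.1 and matplotlib 3.10.9 were used.

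Genes named are, per list, the 10 with the highest tag counts, per pair of lists up to 8 found in only 1 of them, those with peaks of all 3 proteins, and the Sdh genes (1 gene that this rule names is not reported here); the promoters are those of the highest SIN3A genes. The p65 promoters, Mrpl10 and the genes without a SIN3A peak were chosen after their values were seen. The genes and lists were chosen with earlier results of these data known. Alternatives were another window, another assignment, stricter peaks, lists of equal length and other overlap rules. Leaving out replicates was not possible.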

Additional observations from a re-analysis of the deposited data

Results flagged for a closer look

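PDX1 peaks were also called on the mitochondrial chromosome, which enters no comparison above. They were picked out because no comparison uses them; like every peak of the lists they passed the authors' threshold over input. In WT cells with IL-1β a peak at chrM:13415-13641 had 4073.8 tags, 4.96-fold over input, and ranked 1 in its list. In WT cells under control conditions a peak at chrM:13425-13631 had 3514.3 tags, 5.72-fold over input, and ranked 1, and a second at chrM:9721-9927 had 1605.5 tags, 5.73-fold over input, and ranked 5. All 3 folds were below the median over gene-assigned peaks, 7.86 with IL-1β and 9.11 under control conditions. The ranks are by score, so they do not mean high enrichment over input.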

How the results depend on the processing

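No paired analysis was possible because the peak lists hold no value per replicate, and for the same reason no replicate could be left out. Of 262 alternative values for 58 results, 173 stayed close to the main value and 89 moved; the cause was not tested beyond what each setting itself removes. Presence in a list depends on its depth and threshold.

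With every gene within 1 kb of a peak counted, the near-end share for p65 was 14.2% and 0.0% in Bmal1-/- cells and 9.46% and 4.05% in WT cells. For PDX1 it was 0.0% and 0.676% in Bmal1-/- and 5.41% and 6.08% in WT cells, each with IL-1β and under control conditions. Over all genes, in the same order, it was 11.7%, 0.187%, 15.9% and 1.68% for p65 and 1.07%, 1.01%, 6.24% and 7.41% for PDX1. With each WT list shortened to the length of the Bmal1-/- list of the same condition, 18.9% and 0.676% of the genes had a p65 peak in WT cells, and 8.11% and 10.1% a PDX1 peak (IL-1β, control), against 30.9%, 0.626%, 15.3% and 15.3% of all genes. With the lists of each pair cut to equal length, 0 of 8 WT IL-1β p65 peaks (0.0%) overlapped a WT control peak. Cut against the Bmal1-/- IL-1β list, 26 of 45 (57.8%) overlapped a peak of that list. The overlap of WT PDX1 with Bmal1-/- peaks was 50% with IL-1β and 50% under control conditions. Genes in Bmal1-/- alone against WT alone were then 15 against 8 for p65 with IL-1β, and 4 against 4 and 7 against 6 for PDX1 (IL-1β, control). In WT cells 6 had p65 with IL-1β alone and 15 under control conditions alone. Counts of genes in 1 list alone were not made over all genes at the equal-length, 8-fold and 10 kb settings. Overlaps at the alternative settings were not computed over all assigned peaks either, so none can be called particular to the set.

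At 8-fold over input or more, the p65 shares with IL-1β were 12.8% (Bmal1-/-) and 20.3% (WT), against 22.6% and 33.0% of all genes. The PDX1 shares were 1.35% and 4.73% in Bmal1-/- cells and 14.2% and 21.6% in WT cells (IL-1β, control). Over all genes they were 6.93%, 6.15%, 27.7% and 31.2%. The SIN3A shares were 60.1% with Pdx1 siRNA and 48.6% with control siRNA, against 38.5% and 35.4% of all genes. Near-end PDX1 shares were 0.0% in Bmal1-/- control (0 of 7 peaks) and 0.0% in WT IL-1β cells (0 of 29 peaks). Overlaps of PDX1 with IL-1β and control peaks were 50% (Bmal1-/-, 1 of 2 peaks) and 51.7% (WT, 15 of 29 peaks). Those of WT with Bmal1-/- PDX1 peaks were 6.90% with IL-1β and 11.1% under control conditions. Those of control with Pdx1 siRNA SIN3A peaks were 78.4%, of SIN3A with WT IL-1β p65 peaks 2.70%, and of p65 with PDX1 peaks under IL-1β 4.17% (Bmal1-/-) and 10.0% (WT). Genes in 1 list only were 1 (Bmal1-/-) and 6 (WT) for PDX1 with IL-1β and not control, 19 for PDX1 with IL-1β in WT and not Bmal1-/- cells, and 30 for SIN3A with Pdx1 siRNA alone and 13 with control siRNA alone.

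With a 10 kb window the WT control PDX1 share was 23.0%, against 36.4% of all genes, and 1 gene had PDX1 in Bmal1-/- cells with IL-1β only. By nearest gene start, 0.0% had p65 in Bmal1-/- control and 38.7% PDX1 in WT control cells, against 0.572% and 42.3% of all genes. Measured to the gene start, 7.14% of WT control p65 peaks (1 of 14) and 90.9% of SIN3A peaks with control siRNA (90 of 99) were near. Taking each gene's highest peak, 25% of WT IL-1β p65 peaks and 88.8% of Pdx1 siRNA SIN3A peaks were. The overlap of SIN3A peaks with control siRNA with those with Pdx1 siRNA was 66.4% at a reciprocal 50%, 62.2% with centres within 100 bp and 94.1% at up to 500 bp apart. For WT p65 with PDX1 under IL-1β it was 20% and 18.8%, for SIN3A with WT control PDX1 0.840% and 0.840%, and with WT IL-1β p65 3.36% and 3.36%, at a reciprocal 50% and within 100 bp. That of WT with Bmal1-/- control PDX1 peaks was 0.0% at a reciprocal 50%. This value was fixed in advance, because a WT peak of 207 bp cannot cover 50% of a Bmal1-/- peak of 472 bp. It says nothing about shared sites.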
